A study of Mus musculus with 11 samples.

Results

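The comparison described here set pre-hematopoietic stem cells (pre-HSCs) of the mouse embryo against hematopoietic stem cells of adult bone marrow (BM HSCs), both from a series of 5 sorted populations, with the fetal liver stage between them left out. Its members were the genes with an FPKM (fragments scaled to transcript length and to the mapped fragments of the library) of at least 1 in at least 2 of the 5 libraries compared, which gave 13759 of the 37820 genes of the deposited file. Messenger RNA of sorted cells had been sequenced in 3 pre-HSC and 2 BM HSC libraries. The other populations were endothelium and blood-forming (hemogenic) endothelium of embryonic day 10.5 and fetal liver HSCs of day 14.5. Their libraries shared the model fit and the F test, and fetal liver values are quoted for some genes. Library values below are given in the order of pre-HSC replicates 1, 2 and 3, then BM HSC replicates 1 and 2.

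Pre-HSCs came from the major arteries of embryos that carried GFP driven by Ly6a regulatory sequences, and were sorted as CD31+CD144+ESAM+Kit+Ly6a:GFP+ cells after collagenase digestion. The labels give embryonic day 10.5, whereas the methods of the study describe a later collection day. BM HSCs came from mice of 6 to 8 weeks, enriched on CD117 beads and sorted as lineage-negative Sca1+Kit+CD150+ cells, with CD48 and CD135 negative in the methods and CD34 negative in a supplementary list. The labels give the strain B6129SF1 for every library, but the methods name B6C3F1 females crossed with Ly6a-GFP males for pre-HSCs, and both B6C3F1/J and B6129SF1/J mice for BM HSCs. Each pre-HSC library pooled embryos and tissues (aorta region, vitelline and umbilical arteries). Age, tissue, strain, transgene, gate and cell isolation all changed with the population, so their parts in any difference below cannot be told apart. The Ly6a:GFP gate enriches for pre-HSCs but also takes other cells of the arterial clusters.

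Blood stem cells arise in the embryo from endothelial cells of the large arteries, which bud into clusters attached to the vessel wall. Cells of these clusters keep endothelial surface proteins such as VE-cadherin while they take up a blood program led by factors such as Runx1, Gata2 and Myb. Adult stem cells lie in the marrow, divide rarely, and are recognised by CD150 and by the receptor for stem cell factor. Proteins of major histocompatibility complex (MHC) class I, which display peptides on nearly all adult nucleated cells, are scarce on most early embryonic cells.

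Of the 13759 genes, 2116 were called higher in BM HSCs (15.4%) and 2141 lower (15.6%). A call required an adjusted p under 0.05 for the contrast and an adjusted p under 0.01 in an F test over the 5 populations, both from limma, together with a difference of at least 1 on the log2(FPKM + 1) scale. All differences below are BM HSC minus pre-HSC on that scale, which understates changes of genes with low values. A gene under 1 FPKM throughout 1 population entered the test through the other population, which largely set its direction. This limit holds for every list below. The falls were larger than the rises. Among rising genes 49 passed a log2 difference of 4, against 247 among falling genes, and the medians of the called genes were 1.54 and -1.90. From a mean under 1 FPKM, 80 genes reached a mean of 10 or more in BM HSCs, while 332 went the opposite way. A further 3148 genes passed an adjusted p of 0.05 with a difference under 1, and 413 differed by 1 or more without being called.

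The populations did not overlap at 73.3% of the tested genes, and at 2111 of the rising and 2137 of the falling calls. Column totals ran from 569851 to 610013 FPKM in pre-HSCs and were 622615 and 653806 FPKM in BM HSCs, and the median difference of all tested genes was 0.14. Quantile normalization made that median 0.10 and scaling to equal totals made it 0.03, so differences near 0 depend on the scaling. The table gives no read counts, so the depth behind each value is unknown. In bulk libraries, fewer cells of a type and less RNA per cell cannot be told apart. Protein-coding genes made up 90.1% of the rising and 95.5% of the falling calls, against 92% of the tested genes. Chromosome 17, which carries the mouse MHC, had 147 rising genes among 697 tested (21.1%), the highest share of rising genes among the autosomes and X, and 79 falling genes (11.3%).

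**Figure D1:**
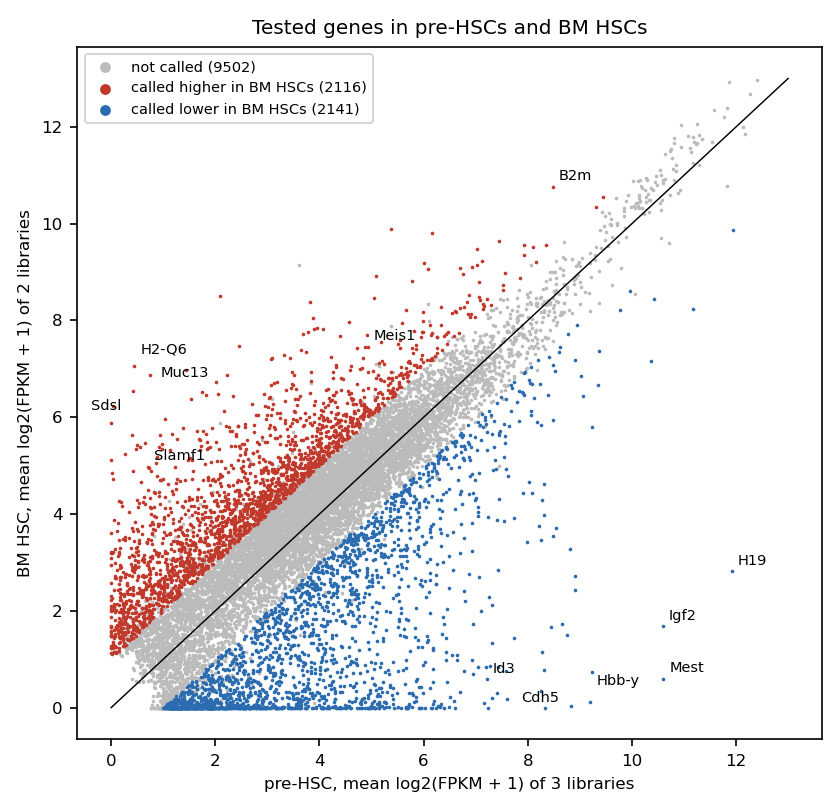
Each point is 1 of the 13759 tested genes, plotted by its mean log2(FPKM + 1) over the 3 pre-HSC libraries (x axis) and over the 2 BM HSC libraries (y axis), with the diagonal marking equal values. The 2116 genes called higher in BM HSCs are red and the 2141 called lower are blue, and the blue points reach farther from the diagonal, down to Mest, Igf2 and H19.

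The genes of the sort gates checked the populations and are no finding. Cdh5, which encodes VE-cadherin (CD144), stood at 454, 489 and 429.5 FPKM in pre-HSCs and at 0.0257 and 0.0124 FPKM in BM HSCs. Pecam1 (CD31) stood at 255, 283 and 272 FPKM against 21.2 and 19.9, and Esam at 166, 186 and 174 against 55.3 and 48.1. Transcripts of the gated pre-HSC surface proteins were thus present in all pre-HSC libraries, and those 3 were lower in both BM HSC libraries. Kit, the stem cell factor receptor used in both gates, was 34.2, 39.2 and 33.2 FPKM in pre-HSCs and 195 and 182 in BM HSCs. Endogenous Ly6a (Sca1) was 6.83, 7.09 and 3.57 FPKM against 32.3 and 43.2, so the transcript was low in cells chosen by a GFP made from its regulatory sequences. Slamf1 (CD150) was 0.360, 0.636 and 0.959 FPKM against 31.8 and 29.4. Of the genes that the marrow gate should exclude, Cd48 was 2.95, 2.45 and 6.09 FPKM against 5.01 and 7.72, Flt3 (CD135) 2.68, 3.70 and 3.10 against 13.3 and 10.7, and Cd34 246, 295 and 296 against 80.6 and 86. Cd48 overlapped between the populations and was not called, Flt3 was higher in BM HSCs, and Cd34 was lower there without being near 0. Xist, the RNA of the inactive X chromosome, was 33.5, 32.2 and 25.1 FPKM against 75.9 and 61.5 and was called higher in BM HSCs, and the other tested sex-linked genes were not called. Without BM HSC replicate 1 the difference of Xist was 1.01 and was not called.

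The 12 protein-coding genes with the largest falls were endothelial, imprinted or embryonic globin genes, with a few growth factor and calcium-binding genes. Mest, an imprinted gene active in the embryo, was 1549, 1687 and 1442 FPKM in pre-HSCs and 0.958 and 0.172 in BM HSCs, and fell by 10.01 ± 0.39 (SE, adjusted p = 2.39e-08, chr6:30673547-30698457 in mm9). Igf2, the imprinted fetal growth factor, was 1555, 1625 and 1459 FPKM against 1.89 and 2.58 and fell by 8.91 ± 0.19 (SE, adjusted p = 4.98e-10, chr7:149836673-149852721). Plvap, a protein of the diaphragms of endothelial pores, was 576, 615 and 606 FPKM against 0.533 and 0.791 and fell by 8.50 ± 0.18 (SE, adjusted p = 4.98e-10). These 3 genes were among the abundant transcripts of every pre-HSC library and were below 3 FPKM in both BM HSC libraries. Aplnr, the apelin receptor of growing vessels, was 317, 335 and 315 FPKM in pre-HSCs and was listed at 0 in both BM HSC libraries. Mdk, the secreted growth factor midkine, was 448, 416 and 436 FPKM against 1.55 and 2.17. The noncoding imprinted H19, outside the protein-coding rule, was 3606, 3861 and 4110.1 FPKM against 6.59 and 5.64 and fell by 9.08 ± 0.18 (SE, adjusted p = 3.92e-10).

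Among the 12 largest rises were class I genes, an interferon-inducible GTPase, enzymes and a mucin. H2-Q6, a nonclassical class I gene, was 0.0835, 0.274 and 0.809 FPKM in pre-HSCs and 114 and 153 in BM HSCs, a rise of 6.61 ± 0.27 (SE, adjusted p = 3.76e-08). Muc13, a transmembrane mucin, was 0.563, 0.628 and 0.867 FPKM against 104 and 129 and rose by 6.12 ± 0.21 (SE, adjusted p = 9.74e-09, chr16:33794123-33820020). Sdsl, a serine dehydratase-like enzyme, was 0.232, 0.341 and 0.437 FPKM against 87.7 and 96.3 and rose by 6.12 ± 0.31 (SE, adjusted p = 1.52e-07, chr5:120908195-120922819). Every pre-HSC library was below 1 FPKM for these 3 genes and both BM HSC libraries were above 80 FPKM. Tgtp2, an interferon-inducible GTPase, was 0.0474, 0.0132 and 0 FPKM against 69.8 and 79.9. Myl10, a myosin light chain gene, and Car1, a carbonic anhydrase of red cells, were listed at 0 in all 3 pre-HSC libraries while in BM HSCs Myl10 was 42.2 and 80.2 FPKM and Car1 14.6 and 75.2. In Car1, and in the phosphatase regulator gene Phactr1 (30.6 and 123 FPKM), BM HSC replicate 2 was well above replicate 1. Rps26-ps1, named as a copy of a ribosomal protein gene, and the gene model Gm10260 were also among these 12. Only uniquely mapping reads were retained, so reads shared with near-identical genes would be lost and the values of such copies are uncertain.

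**Figure D2:**
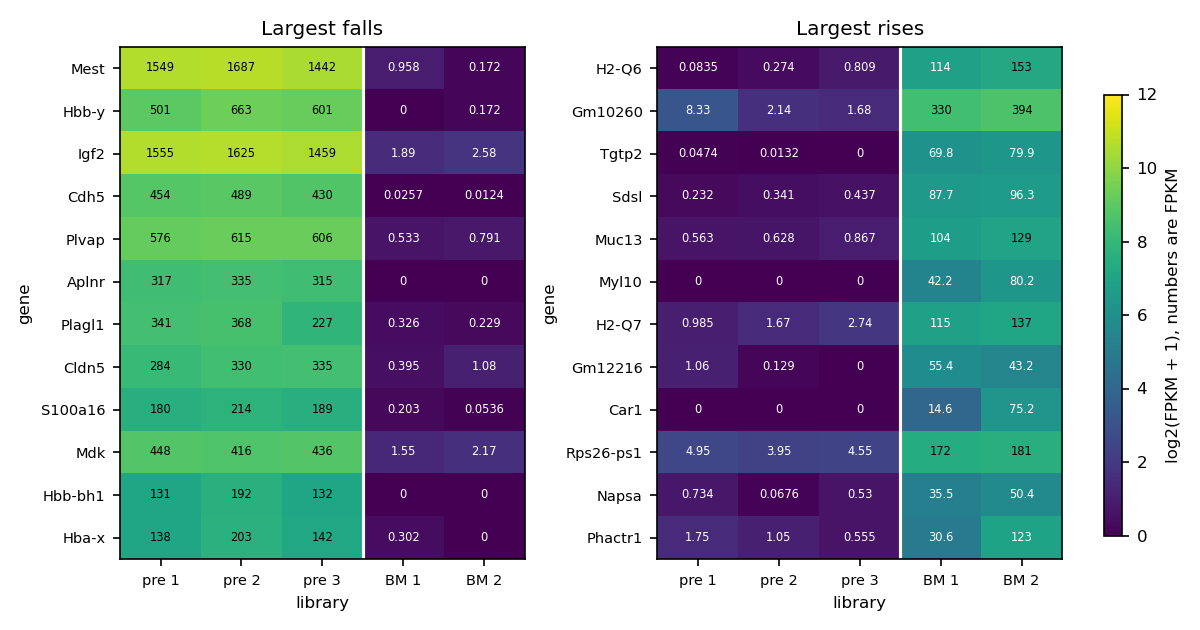
Rows are the 12 protein-coding genes with the largest falls (left) and the 12 with the largest rises (right), columns are the 5 libraries, color is log2(FPKM + 1) and the printed numbers are FPKM. Within each row the 3 pre-HSC libraries and the 2 BM HSC libraries stand apart, and BM HSC replicate 2 is above replicate 1 in Car1 and Phactr1.

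MHC class I presentation rose broadly. Of the 28 tested genes of this list 22 were called higher in BM HSCs and 0 lower, against 15.4% of all tested genes called higher, and the list's median difference was 2.39 against 0.14 over all tested genes. The rising members included the interferon-inducible proteasome subunits that cut peptides, the Tap transporter that brings them into the endoplasmic reticulum, the heavy chains and their common light chain.

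Promoters of 4 rising class I genes are shown because they carry short motifs of the kind bound by interferon regulatory factors (GAAA, any pair of bases NN, then GAAA) or of a shorter form (GAA, NN, then GAAA). Each run holds the 250 bases before and the 50 bases from the RefSeq start site in GRCm38.p6, read 5′ to 3′ on the strand of the gene, with the motif in capitals. A motif on the opposite strand appears as its reverse complement. B2m and H2-K1 were chosen after their values were seen.
B2m, chr2:122147437-122147736, plus strand: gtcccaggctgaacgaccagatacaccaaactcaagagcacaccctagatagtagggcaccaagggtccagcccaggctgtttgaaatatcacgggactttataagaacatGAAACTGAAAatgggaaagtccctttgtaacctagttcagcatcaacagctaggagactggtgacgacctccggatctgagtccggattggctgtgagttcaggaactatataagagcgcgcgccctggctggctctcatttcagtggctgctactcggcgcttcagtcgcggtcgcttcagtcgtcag
H2-K1, chr17:34000298-34000597, minus strand: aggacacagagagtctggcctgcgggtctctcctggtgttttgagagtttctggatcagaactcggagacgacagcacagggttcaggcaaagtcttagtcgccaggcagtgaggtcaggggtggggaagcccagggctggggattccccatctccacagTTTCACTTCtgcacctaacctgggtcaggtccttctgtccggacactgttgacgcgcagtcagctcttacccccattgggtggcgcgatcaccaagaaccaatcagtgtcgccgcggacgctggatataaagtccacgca
H2-Q6, chr17:35424600-35424899, plus strand: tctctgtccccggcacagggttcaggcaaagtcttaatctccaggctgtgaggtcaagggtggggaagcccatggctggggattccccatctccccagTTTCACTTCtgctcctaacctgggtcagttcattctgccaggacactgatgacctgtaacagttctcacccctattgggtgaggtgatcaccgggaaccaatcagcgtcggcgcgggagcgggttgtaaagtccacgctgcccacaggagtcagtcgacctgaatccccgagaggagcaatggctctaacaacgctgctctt
H2-Q7, chr17:35438905-35439204, plus strand: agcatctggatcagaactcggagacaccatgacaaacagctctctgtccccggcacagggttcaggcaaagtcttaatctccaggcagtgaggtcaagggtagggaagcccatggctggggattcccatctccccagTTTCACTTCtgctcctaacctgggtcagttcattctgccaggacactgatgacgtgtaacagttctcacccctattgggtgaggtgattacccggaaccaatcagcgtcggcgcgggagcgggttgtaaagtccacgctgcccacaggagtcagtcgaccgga
The B2m motif began 139 bases before the start site and those of H2-K1, H2-Q6 and H2-Q7 began 90, 152 and 113 bases before it. The windows of H2-Q6 and H2-Q7 shared a longest common run of 67 bases, and 249 of the 300 bases lay in shared runs of 8 or more. Searched on both strands, 1 or both motifs were found in 12 of the 17 rising class I genes that had a promoter in the table, and in 0 of the 6 list members that were not called. Those 6 include the chaperones Calr and Pdia3. Counted by promoter, 13 of 18 promoters of the rising genes (72.2%) held 1 or both, against 10.4% of all 32851 promoters of this length. Some windows are close copies, as in H2-Q6 and H2-Q7, so these promoters are not all separate cases. The longer motif was in 5 of the 18 promoters (27.8%) against 3.44% of all promoters, and the shorter in 9 (50%) against 7.52%. A match describes letters in the window and not a bound site, and the 2 motifs can overlap. Among interferon-stimulated genes, 60.9% of promoters of rising members and 62.5% of those of members not called held 1 or both.

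B2m, the light chain shared by all class I proteins, was 338, 266 and 498 FPKM in pre-HSCs and 1615 and 1869 in BM HSCs, a rise of 2.29 ± 0.24 (SE, adjusted p = 2.51e-05). H2-K1, a classical heavy chain, was 34.8, 24 and 79.6 FPKM against 907 and 989.5 and rose by 4.51 ± 0.40 (SE, adjusted p = 7.37e-06). H2-Q7 was 0.985, 1.67 and 2.74 FPKM against 115 and 137 and H2-Q8 0.200, 0.330 and 0.0893 against 41.8 and 32.8. In B2m and H2-K1 pre-HSC replicate 3 was the highest and replicate 2 the lowest of the 3, and the count of rising list members was 22 without replicate 3 and 22 with replicate 2 alone. The 2 populations did not overlap for any of these genes, and B2m was already abundant in pre-HSCs whereas the H2-Q genes were near 0 there. H2-Q6 and H2-Q8 entered the test through their BM HSC values, which largely set their direction. In fetal liver HSCs, the stage between, H2-Q6 was 0.352 and 0.150 FPKM and H2-Q7 0.199 and 0.535. H2-Q6, H2-Q7 and H2-Q8 (chr17:35561795-35567000, chr17:35576100-35580714 and chr17:35531071-35534971 in mm9) are close copies, and class I sequences differ between mouse strains, so unique mapping, strain and stage cannot be told apart for their values. Of the members not called, Calr, an endoplasmic reticulum chaperone also used outside antigen presentation, was 415, 402 and 464 FPKM against 339.6 and 407 and overlapped. Pdia3, another chaperone, was 330.5, 320.1 and 313 against 167 and 174, a difference of -0.91 that did not reach 1.

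**Figure D3:**
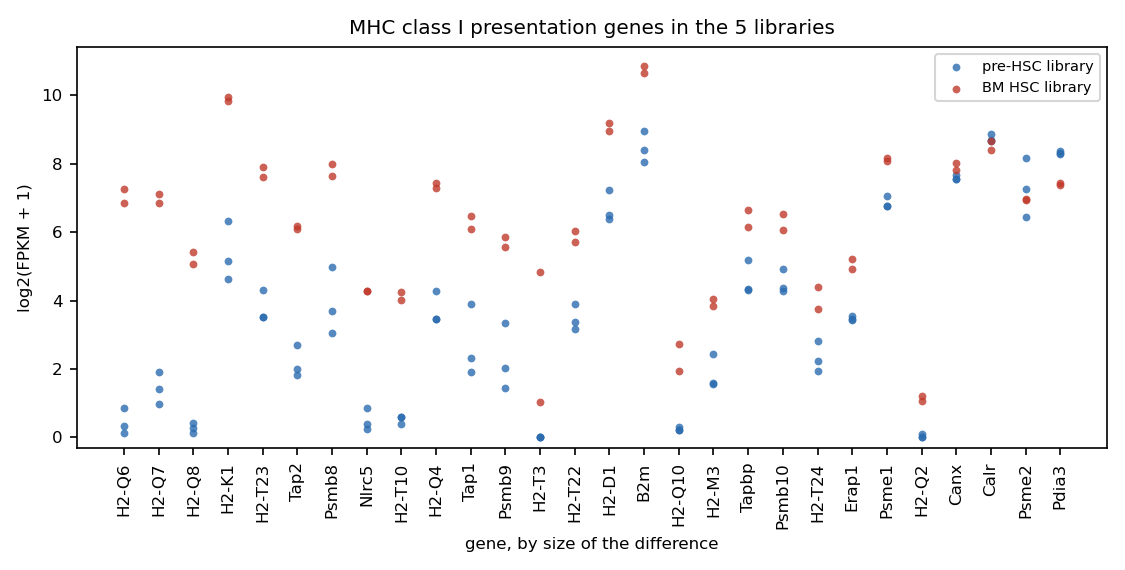
Points are the log2(FPKM + 1) values of the 28 class I presentation genes in the 3 pre-HSC libraries (blue) and the 2 BM HSC libraries (red), ordered by the size of the difference. The populations are separate from H2-Q6 at the left to Psme1, and the members not called are H2-T3, H2-Q2, Canx, Calr, Psme2 and Pdia3.

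Class II genes, which present peptides taken up from outside the cell, also rose, from lower levels. Of 11 tested members 9 were called higher (81.8%) and 2 lower (18.2%), against 15.4% and 15.6% of all tested genes, with a median of 2.75. H2-DMa, a loader of peptides, was 1.02, 1.16 and 1.62 FPKM against 39.4 and 62.1 and rose by 4.49 ± 0.33 (SE, adjusted p = 2.05e-06). H2-Aa, a class II chain, was 0.339, 0 and 0.527 FPKM against 9.14 and 25.7. Members near 0 in pre-HSCs, such as H2-Aa, entered the test through their BM HSC values, so their direction was largely set by the filter. The 2 falling members were Ctss, a protease of phagocytes at 56, 15 and 103 FPKM against 2.89 and 5.66, and Ifi30, a lysosomal reductase at 56.2, 18.3 and 107 against 11.4 and 6.58. Both stood in the order of the macrophage markers below, and neither call held in every fit: without BM HSC replicate 1 the difference of Ctss was -2.78 (adjusted p = 0.0554), and Ifi30 was not called without either BM HSC replicate or pre-HSC replicate 1. With pre-HSC replicate 2 as the only pre-HSC library 8 members were called higher and 0 lower.

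Macrophage markers set the pre-HSC libraries apart from each other. Csf1r, the receptor for the macrophage growth factor, was 85.8, 26.3 and 164 FPKM in pre-HSCs and 0.136 and 0.0674 in BM HSCs. C1qb, a complement chain made by macrophages, was 171, 58.2 and 389 FPKM against 1.74 and 1.34. Of 19 tested macrophage genes 17 were called lower in BM HSCs (89.5%, against 15.6% of all tested genes) and 0 higher. Markers near 0 in BM HSCs, such as Csf1r, entered the test through their pre-HSC values, so their direction was largely set by the filter. The summed list was 1140, 433 and 2304 FPKM in pre-HSCs and 149 and 165 FPKM in BM HSCs. Replicate 3 thus held the highest and replicate 2 the lowest level, and of the 22 listed markers Lyz1 was at 0 in all pre-HSC libraries and Timd4 at 0 in both BM HSC libraries. Lyz2, a lysozyme gene of myeloid cells, did not follow this order in BM HSCs (101 and 127 FPKM against 82.6, 50.7 and 155) and was not called. With pre-HSC replicate 2 alone 12 macrophage genes were called lower and 1 higher. The part of macrophages in the results below was not tested, so counts are also given without pre-HSC replicate 3 and with replicate 2 alone.

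Interferon-stimulated genes rose in part. Of 47 tested members 23 were called higher (48.9%) and 1 lower (2.1%), against 15.4% and 15.6% of all tested genes, with a median of 1.08. Isg20, an exonuclease, was 1.0, 1.71 and 2.49 FPKM against 28.1 and 22.4 and rose by 3.29 ± 0.25 (SE, adjusted p = 2.41e-06). Ifitm1, a membrane protein that restricts viral entry, was 54.3, 75.2 and 74.1 FPKM against 549.7 and 512 and rose by 2.96 ± 0.15 (SE, adjusted p = 1.29e-07). These genes separated the populations in all 5 libraries. Lgals3bp, a secreted glycoprotein, was 12.5, 7.09 and 25.8 FPKM against 94.4 and 119. Ifi27l2a, the falling member, was 25.2, 6.95 and 99.3 FPKM in pre-HSCs and 1.42 and 0.112 in BM HSCs, and Bst2, a tether of budding virus, was 79.5, 76.4 and 213 against 90.6 and 81.8 and overlapped. The fall of Ifi27l2a was not called without pre-HSC replicate 1 (-4.11, adjusted p = 0.00902), where it missed the F test. In both of these genes pre-HSC replicate 3 was the highest library, as for the macrophage markers. Without replicate 3 the list had 31 members called higher and 1 lower, without replicate 2 it had 21 higher and 4 lower, and with replicate 2 alone 31 higher and 0 lower. Of the 18 rising members with a RefSeq promoter, 13 held 1 or both motifs named above, and of 14 members not called 10 did.

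Inflammatory genes moved the opposite way. Of 33 tested genes of inflammation and NF-kB signaling 17 were called lower (51.5%) and 1 higher (3.0%), with a median of -1.53. The shares of all tested genes were 15.6% and 15.4%. The chemokine Cxcl2 was 33, 12.5 and 63.7 FPKM in pre-HSCs and was listed at 0 in both BM HSC libraries. Ccl2, another chemokine, was 29.2, 10.003 and 52.2 FPKM against 0.304 and 0, and Cd14, a receptor for bacterial lipopolysaccharide, was 25, 8.26 and 72.1 against 0.165 and 0.723. All 3 followed the order of the macrophage sum, highest in pre-HSC replicate 3 and lowest in replicate 2. Being near 0 in BM HSCs, all 3 entered the test through their pre-HSC values, which largely set their direction. Casp1, the protease that matures interleukin 1, was the rising member at 4.52, 1.92 and 8.27 FPKM against 21.2 and 22.3. Nfkb1, a subunit of the transcription factor itself, was 47.2, 53.8 and 52.9 FPKM against 86.9 and 91.2, and Tnfrsf1a, a tumor necrosis factor receptor, 75.3, 78.1 and 86.2 against 46.2 and 71.6. Neither was called. Without replicate 3, 16 members were called lower, and with replicate 2 alone 10 were lower and 3 higher.

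**Figure D4:**
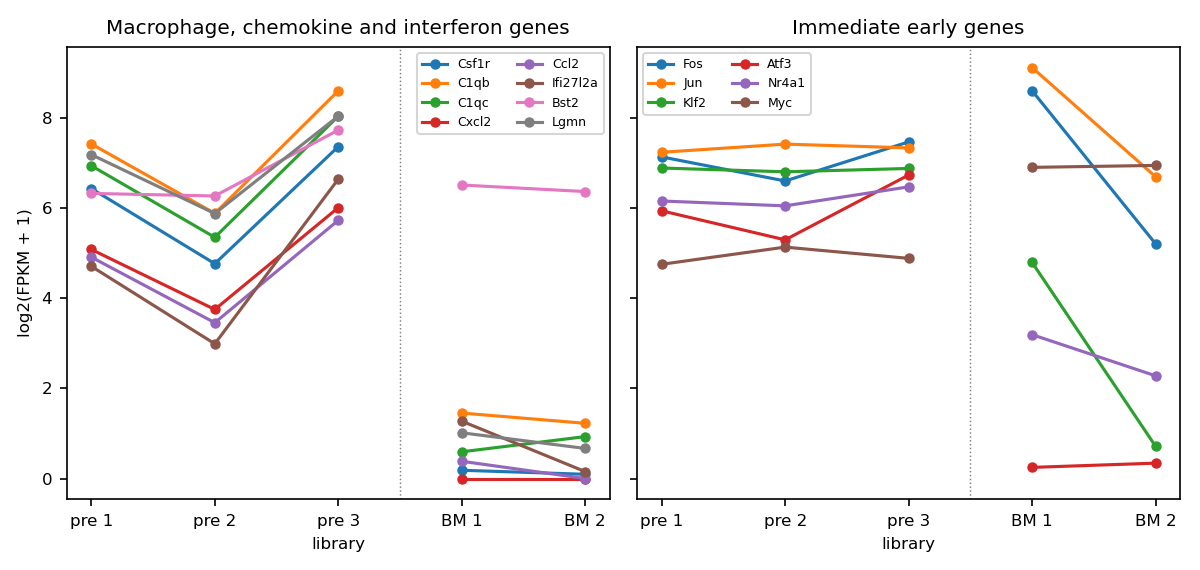
Lines join the log2(FPKM + 1) values of single genes across the libraries of each population, with macrophage, chemokine and interferon genes on the left and immediate early genes on the right. The left genes share the order of replicate 3 above 1 above 2 in pre-HSCs, while Fos, Jun and Klf2 are higher in BM HSC replicate 1 than in replicate 2.

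Transcription factors of blood stem cells were higher in BM HSCs. Of 34 tested members 22 were called higher (64.7%) and 2 lower (5.9%), against 15.4% and 15.6% of all tested genes. The median was 2.0, and the summed list was 889.5 to 974 FPKM in pre-HSCs and 3188 and 3365 FPKM in BM HSCs. Runx3, a core binding factor subunit, was 0.367, 0.502 and 0.914 FPKM against 37.5 and 49.6 and rose by 4.81 ± 0.24 (SE, adjusted p = 1.33e-07). Runx2, its paralog best known from bone, was 0.923, 0.647 and 1.26 FPKM against 54.9 and 42.7 and rose by 4.68 ± 0.35 (SE, adjusted p = 2.12e-06). Gfi1b, a repressor of the erythroid and megakaryocyte lineages, was 2.28, 5.70 and 2.04 FPKM against 72.2 and 153. No pre-HSC library reached a BM HSC library in these 3 genes. Runx3, under 1 FPKM in every pre-HSC library, entered the test through its BM HSC values, which largely set its direction. Runx1, named after its values were seen because it starts the blood program in the embryo, was 12.6, 13.1 and 16.1 FPKM against 73.4 and 60.3 and rose by 2.18 ± 0.16 (SE, adjusted p = 2.29e-06). The Hox cofactor Meis1, also named afterwards, was 31.9, 29.9 and 26.6 FPKM against 173 and 177. Foxo1, a factor of the insulin pathway, fell from 14.8, 15.4 and 14.2 FPKM to 3.58 and 4.65. Gfi1, a repressor related to Gfi1b, was 11.3, 24.2 and 13.8 FPKM against 10.4 and 3.53, and its fall of 1.21 ± 0.44 (SE, adjusted p = 0.0395) was not called without pre-HSC replicate 2 or 3, or without BM HSC replicate 2, which left a difference of -0.55 (adjusted p = 0.370). Ldb1, a bridging factor, was 160.0, 158 and 167 FPKM against 189.6 and 173, and Fli1, an Ets factor of endothelium and blood, 62.7, 66.4 and 56.3 against 112 and 116, and neither was called.

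Genes known for enrichment in adult HSCs rose in part, with a share of falls near that of all tested genes. Of 26 tested members 12 were called higher (46.2%) and 5 lower (19.2%), against 15.4% and 15.6% of all tested genes. Hlf, a leucine zipper factor of stem cells, was 7.45, 10.1 and 5.95 FPKM against 102 and 104 and rose by 3.58 ± 0.24 (SE, adjusted p = 9.53e-07). Hlf was among the largest rises of the list. Slamf1, also counted among the rises, encodes CD150 of the BM HSC gate, so its rise is no finding. Fgd5, a regulator of Cdc42 used as an HSC reporter and also active in endothelium, was 59.2, 68.4 and 50.6 FPKM against 13.1 and 15.7, and Vwf, a clotting protein of endothelium and platelets, 162, 164 and 197 against 55.9 and 44.3. Both were called lower, as was Gprc5c, an orphan receptor, at 12.2, 12.4 and 12.1 against 0.161 and 0.129. Cd9, a tetraspanin, was 124, 137 and 153 FPKM against 147 and 156 and overlapped.

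Megakaryocyte and platelet genes rose in 14 of 22 tested members (63.6%) and fell in 3 (13.6%), against 15.4% and 15.6% of all tested genes. Itga2b (CD41), an integrin chain of platelets and of the first blood cells, was 7.12, 10.6 and 9.56 FPKM against 163 and 147 and rose by 3.96 ± 0.25 (SE, adjusted p = 5.57e-07). Gata1, which drives red cell and megakaryocyte formation, was 0.871, 1.05 and 0.799 FPKM against 20.7 and 30.4 and rose by 3.78 ± 0.31 (SE, adjusted p = 4.09e-06). Clec1b, a platelet receptor, was 21.9, 30.1 and 26.3 FPKM against 1.82 and 0.849 and fell by 3.56 ± 0.25 (SE, adjusted p = 1.29e-06). Both rising genes separated the populations, and the fall of Clec1b did so too. Of 17 tested erythroid genes 8 were called higher (47.1%) and 2 lower (11.8%). Car2, a carbonic anhydrase, was 30.4, 37.1 and 32.3 FPKM against 409 and 569, while Alas2, the first enzyme of red cell heme synthesis, was 2.43, 2.16 and 1.71 FPKM against 0 in both BM HSC libraries. All 7 tested globins were called lower, against 15.6% of all tested genes, with summed values of 848 to 1187 FPKM against 2.39 and 6.69. Globins near 0 in BM HSCs entered the test through their pre-HSC values, which largely set their direction. The embryonic beta globin Hbb-y was 501, 663 and 601 FPKM against 0 and 0.172, and Hba-x, the embryonic alpha-like globin, 138, 203 and 142 against 0.302 and 0. Embryonic globin RNA was thus present in all 3 pre-HSC libraries, and whether it came from the sorted cells was not tested.

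Of 18 granulocyte genes 8 were tested, and 5 of these were called higher and 0 lower, including the neutrophil protein gene S100a8 at 0.307, 1.55 and 1.85 FPKM against 16.5 and 13, and 3 were called higher without pre-HSC replicate 1 or without BM HSC replicate 1. Mpo, myeloperoxidase, was 15.9, 22.6 and 21.7 FPKM against 10.6 and 8.89 and was not called, but passed without pre-HSC replicate 1 (-1.11) or BM HSC replicate 1 (-1.07). Of 24 lymphoid genes 8 were tested, and 3 were called higher and 3 lower (37.5% each, against 15.4% and 15.6% of all tested genes). Ptprcap, a partner of CD45, was 10.2, 16.3 and 15.2 FPKM against 245 and 285 and rose by 4.18 ± 0.25 (SE, adjusted p = 4.83e-07). Nkg7, a protein of cytotoxic granules, was 0, 0.441 and 0.664 FPKM against 20.03 and 41.1. Ebf1, a B cell factor also found in stroma, was 3.99, 3.97 and 2.83 FPKM in pre-HSCs and was listed at 0 in both BM HSC libraries.

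**Figure D5:**
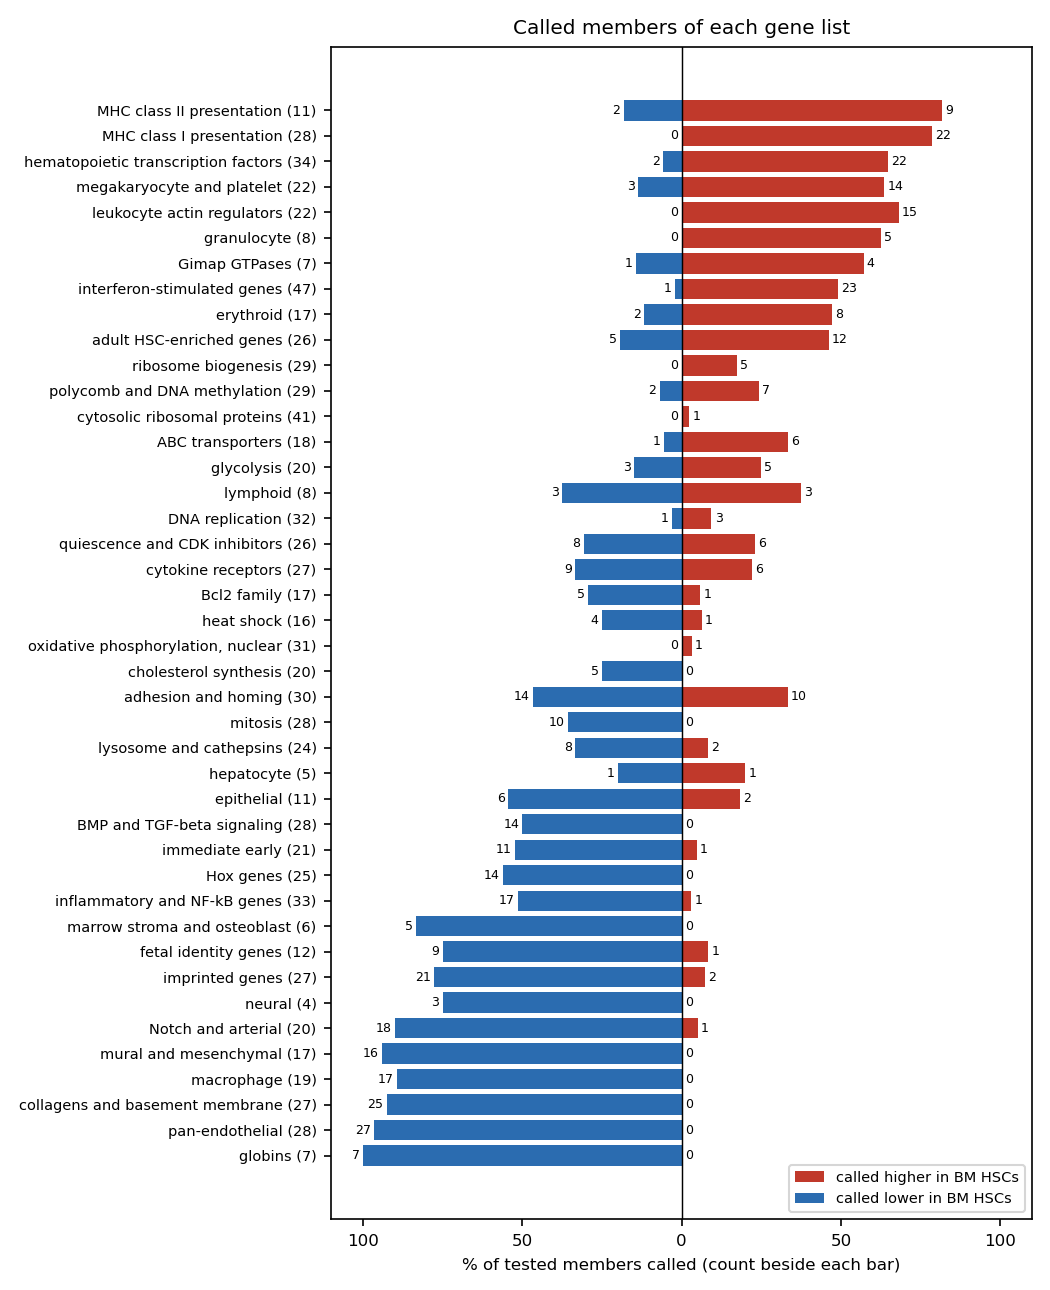
Bars give the share of tested members of each gene list that were called higher (red, right) or lower (blue, left) in BM HSCs, in percent, with the count beside each bar and the number tested in brackets, ordered by the list's median difference. Presentation, blood transcription factor and platelet lists lie at the top, and globin, endothelial, matrix and macrophage lists at the bottom, against 15.4% and 15.6% of all tested genes.

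The endothelial program fell almost throughout. Of 28 pan-endothelial genes 27 were called lower in BM HSCs and 0 higher, against 15.6% of all tested genes called lower, with a median of -5.09, and 3 members were listed at 0 in both BM HSC libraries. The summed list was 5438 to 6043 FPKM in pre-HSCs and 488 and 499 FPKM in BM HSCs. Cdh5, Pecam1 and Esam, genes of the pre-HSC gate, are part of these counts and sums, and their falls are no finding. Members near 0 in BM HSCs entered the test through their pre-HSC values, so their direction was largely set by the filter. Cldn5, a tight junction protein, was 284, 330.4 and 335 FPKM against 0.395 and 1.08. Eng (endoglin), a coreceptor of the TGF-beta family that blood stem cells also carry, was 179.6, 193 and 193 FPKM against 90.8 and 96.8, and its difference of -0.999 (adjusted p = 0.000180) was just short of the threshold, which it passed without pre-HSC replicate 1 (-1.03) or BM HSC replicate 2 (-1.05). In fetal liver HSCs Cdh5 was 11.2 and 4.78 FPKM and Plvap 9.42 and 5.67, between the levels of the other 2 populations.

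Notch and arterial genes fell as well, with 18 of 20 tested members called lower (90%) and 1 higher (5%). The shares of all tested genes were 15.6% and 15.4%. Nrp1, a coreceptor for vascular growth factor, was 51.5, 50.6 and 46.6 FPKM against 0.00425 and 0 and fell by 5.66 ± 0.24 (SE, adjusted p = 4.63e-08). Gja5, a connexin of arteries, was 25.6, 32 and 43.8 FPKM against 0.361 and 0.218 and fell by 4.72 ± 0.35 (SE, adjusted p = 2.13e-06). The type I receptor gene Acvrl1 was 58.8, 62.3 and 61.6 FPKM in pre-HSCs and was listed at 0 in both BM HSC libraries. Nrp1, Gja5 and Acvrl1, near 0 in BM HSCs, entered the test through their pre-HSC values, which largely set their direction. Notch2, the receptor that rose, was 4.92, 3.14 and 4.37 FPKM against 21.9 and 24.9, a rise of 2.26 ± 0.28 (SE, adjusted p = 8.37e-05). The Notch ligand Jag2 was 9.87, 13.7 and 10.3 FPKM against 7.07 and 7.95 and was not called.

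In the BMP and TGF-beta list 14 of 28 tested members were called lower and 0 higher, and 1 was called higher without pre-HSC replicate 2 and without either BM HSC library. The share called lower was 50%, against 15.6% of all tested genes. The target gene Id3 fell most, and the receptor gene Acvrl1 (-5.95) fell further than the target gene Id2. Id3, an inhibitor of helix-loop-helix factors, was 145, 134 and 164 FPKM against 0.421 and 0.591 and fell by 6.62 ± 0.16 (SE, adjusted p = 1.62e-09). Id2, of the same family, was 82.7, 68.4 and 94.5 FPKM against 1.88 and 1.85 and fell by 4.84 ± 0.30 (SE, adjusted p = 5.11e-07). The ligand gene Tgfb1 was 106, 109.7 and 125 FPKM against 133 and 173 and was not called. Receptors among the falls were Tgfbr1, Tgfbr2, Acvr1, Bmpr1a and Acvrl1, named after their values were seen. Their differences were -1.70, -2.05, -2.04, -1.26 and -5.95, respectively, and Acvrl1 was listed at 0 in both BM HSC libraries. The intracellular signal carriers Smad1, Smad2, Smad4 and Smad5 lay between -0.35 and -0.10 and were not called.

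Matrix genes and markers of mural and mesenchymal cells were higher in pre-HSC libraries, whereas markers of other cell types differed in both directions. Of 27 tested collagen and basement membrane genes 25 were called lower in BM HSCs (92.6%), against 15.6% of all tested genes. Hspg2, the basement membrane protein perlecan, was 168, 167 and 171 FPKM against 0.336 and 0.123, and Col18a1, a collagen of vessel walls, 409, 411 and 386 against 2.42 and 2.18. Mmrn1, a matrix protein also stored in platelets, was 55.1, 60.8 and 43.9 FPKM against 57.6 and 61.3 and overlapped. Of 17 tested markers of mural and mesenchymal cells 16 were called lower, with sums of 700, 328 and 415 FPKM in pre-HSCs and 11.5 and 11.1 in BM HSCs, where 12 markers were listed at 0 in both libraries. Col1a1, a fibroblast collagen, was 150.1, 58.2 and 83 FPKM against 0.176 and 0.158, and Acta2, smooth muscle actin, was 87.2, 50.2 and 60.8 FPKM against 0 in both. Pre-HSC replicate 1 was the highest library for both genes. Of 14 neural markers 10 were below the filter and 4 were tested. Stmn2, a neuronal tubulin regulator, was 64.8, 67.7 and 75.5 FPKM in pre-HSCs and was listed at 0 in both BM HSC libraries. A gene near 0 in BM HSCs enters the test through its pre-HSC values, so the direction of such markers was largely set by the filter. Of 16 epithelial markers 11 were tested, and 6 of these were called lower and 2 higher. The keratin gene Krt19 was 8.24, 3.55 and 6.71 FPKM against 0 in both BM HSC libraries. The rising members were Spint2, a protease inhibitor, at 25, 22 and 22.1 FPKM against 109 and 144, and the keratin gene Krt18 at 16.7, 14.3 and 14.8 FPKM against 44 and 48.9. The summed epithelial list was higher in BM HSCs, at 159 and 198 FPKM against 60.9 to 100.02 FPKM in pre-HSCs. With pre-HSC replicate 2 alone 2 epithelial markers were called lower and 1 higher, and 1 was called higher without either BM HSC library. Of 13 markers of marrow stroma 6 were tested and 5 called lower, and with pre-HSC replicate 2 alone 3 were lower and 1 higher. Of 12 hepatocyte markers 5 were tested, and 1 was called higher and 1 lower, and the lower call was lost without pre-HSC replicate 2 or 3 and without either BM HSC library. The part of these cell types in the falls of matrix genes was not tested.

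Genes tied to fetal identity fell in 9 of 12 tested members (75%), against 15.6% of all tested genes. Igf2bp1, an RNA-binding protein of the fetus, was 33.3, 31.6 and 28.6 FPKM against 0.0542 and 0.0692 and fell by 4.92 ± 0.15 (SE, adjusted p = 6.08e-09). Hmga2, a chromatin protein repressed by let-7 microRNAs, was 117, 119.6 and 95.5 FPKM against 3.95 and 3.31 and fell by 4.59 ± 0.18 (SE, adjusted p = 2.39e-08). Igf2bp3 was 31.3, 26.3 and 26.7 FPKM against 0.405 and 0.471. In fetal liver HSCs these 3 genes were at 20.7 and 19.6, 81.5 and 111 and 21.6 and 19.98 FPKM, so of these 3 populations BM HSCs held the lowest levels. Igf2bp1 and Igf2bp3, under 1 FPKM in BM HSCs, entered the test through their pre-HSC values, which largely set their direction. Mycn, a Myc family factor, was the rising member at 35.9, 43.6 and 36.7 FPKM against 92.2 and 93.8. E2f8, a repressor of the E2F family, had a difference of 0.99 and was not called, but passed without pre-HSC replicate 1 (1.04) or 2 (1.03) or without BM HSC replicate 1 (1.06), which made 2 rising members. Hmga1, a relative of Hmga2, was 191, 227 and 201 FPKM against 140.1 and 173 and was not called.

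Imprinted genes, expressed from 1 parental copy, fell in 21 of 27 tested members (77.8%) and rose in 2 (7.4%). The shares of all tested genes were 15.6% and 15.4%. The summed list was 9712 to 10376 FPKM in pre-HSCs and 524 and 587 FPKM in BM HSCs. Members near 0 in BM HSCs, such as Mest, entered the test through their pre-HSC values, which largely set their direction. The rising members were neighbors on chromosome 7. Phlda2 was 1.34, 1.48 and 2.20 FPKM against 8.46 and 8.81 and rose by 1.86 ± 0.23 (SE, adjusted p = 7.90e-05, chr7:150687450-150688446 in mm9). Slc22a18 was 2.60, 3.55 and 2.88 FPKM against 6.63 and 10.6 and rose by 1.24 ± 0.24 (SE, adjusted p = 0.00173, chr7:150659626-150685239), with 0.94 and no call without BM HSC replicate 2. Cdkn1c, the p57 inhibitor of cyclin-dependent kinases and next to them (chr7:150644255-150646955), was 261, 239 and 220.1 FPKM against 20.1 and 21.1 and fell by 3.47 ± 0.13 (SE, adjusted p = 1.57e-08). Adjacent genes thus moved in opposite directions. Peg10 was listed at 0 in pre-HSC replicate 3 against 139 and 144 FPKM in replicates 1 and 2, and was not called. A listing at 0 beside such values can be a failed estimate, and 65 of the tested genes had a like value in 1 of the 5 libraries.

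Of 25 tested Hox genes, which mark position along the body axis, 14 were called lower (56%) and 0 higher. The shares of all tested genes were 15.6% and 15.4%. Hoxd8 was 13.8, 13.9 and 15 FPKM in pre-HSCs and was listed at 0 in both BM HSC libraries. Hoxb9 was 12.3, 11.7 and 9.86 FPKM against 0.589 and 0.320 and fell by 3.08 ± 0.20 (SE, adjusted p = 7.32e-07). Hoxd8 and Hoxb9, near 0 in BM HSCs, entered the test through their pre-HSC values, which largely set their direction. Hoxa9, used by blood stem cells, was 42.6, 50.4 and 42.9 FPKM against 65.4 and 52.1, and Hoxa10 22.1, 15 and 16 against 17.8 and 21.7. Neither of these 2 genes was called. The tested members of the HoxD cluster, Hoxd3, Hoxd4, Hoxd8 and Hoxd9, were called lower, a grouping made after the values were seen.

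Mitosis genes were lower in BM HSCs at 10 of 28 tested members and higher at 0, while DNA replication genes were called higher at 3 and lower at 1 of 32, or 2 lower without BM HSC replicate 2. The share of mitosis genes called lower was 35.7%, against 15.6% of all tested genes. The replication shares were 9.4% higher and 3.1% lower, against 15.4% and 15.6%. Ube2c, an enzyme that marks mitotic proteins for destruction, was 184, 179 and 202 FPKM against 57.4 and 40.01 and fell by 1.95 ± 0.25 (SE, adjusted p = 0.000101). Plk1, a mitotic kinase, was 54, 49 and 55.2 FPKM against 15.7 and 13.2 and fell by 1.80 ± 0.20 (SE, adjusted p = 3.68e-05). Top2a, a topoisomerase of dividing cells, was 112, 108 and 109 FPKM against 85.6 and 70.5 and was not called. The count of falling mitosis genes was 16 without BM HSC replicate 1 and 9 without replicate 2. Among replication genes Pold1, a DNA polymerase subunit, was 33.3, 37.3 and 38.4 FPKM against 77.6 and 89.3 and rose by 1.18 ± 0.14 (SE, adjusted p = 7.75e-05). Rrm2, which supplies deoxynucleotides, was 77, 78.1 and 72.8 FPKM against 28.8 and 26.9 and fell by 1.42 ± 0.13 (SE, adjusted p = 8.05e-06). The replication list's median of 0.08 became -0.01 when libraries were scaled to equal totals.

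The list of quiescence and cell cycle inhibition also held genes that drive the cycle, among them Cdk4, Cdk6, cyclins and E2f factors. Of its 26 tested members 6 (23.1%) were called higher and 8 (30.8%) lower. Of all tested genes 15.4% were called higher and 15.6% lower. The list's median of 0.06 turned negative under both other scalings. As its members act in opposite ways, its counts and median do not describe quiescence as such. Cdk6, a kinase of the first growth phase, was 3.12, 2.88 and 2.33 FPKM against 32.3 and 33.4 and rose by 3.17 ± 0.18 (SE, adjusted p = 2.93e-07). Foxo3, a factor needed for adult HSC maintenance, was 11.7, 10.9 and 11 FPKM against 36.6 and 42.1 and rose by 1.73 ± 0.18 (SE, adjusted p = 2.64e-05). Cdkn1a, the p21 inhibitor, was 16.9, 12.8 and 37 FPKM against 3.61 and 1.97 and fell by 2.51 ± 0.42 (SE, adjusted p = 0.000629), with its highest value in pre-HSC replicate 3. Cdk4 was 588, 691 and 705 FPKM against 318 and 340.5, and its difference of -0.999 was just short of the threshold, which it passed without pre-HSC replicate 1 (-1.08) or without BM HSC replicate 2 (-1.05).

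Metabolic lists differed in their share of calls. Glycolysis genes were called higher at 5 and lower at 3 of 20 tested members, against 15.4% and 15.6% of all tested genes, and 30.9% in either direction. Hk1, a hexokinase, was 27.2, 28.4 and 27.1 FPKM against 128 and 175 and rose by 2.40 ± 0.15 (SE, adjusted p = 7.08e-07), whereas Slc2a1, a glucose transporter, was 112, 133 and 132 FPKM against 19.4 and 18 and fell by 2.68 ± 0.18 (SE, adjusted p = 8.78e-07). Of 31 tested nuclear genes of oxidative phosphorylation 1 was called higher, the succinate dehydrogenase subunit Sdha at 119, 116 and 125 FPKM against 250.0 and 310.5, and 0 lower. Cholesterol synthesis genes were called lower at 5 of 20 (25%), led by Fdft1, squalene synthase, at 26, 24.1 and 25.6 FPKM against 6.14 and 9.25, and at 3 without BM HSC replicate 1. Of 41 tested cytosolic ribosomal protein genes 1 was called higher, Rpl30 at 606, 749 and 734 FPKM against 1379 and 1609 (no call and 0.99 without BM HSC replicate 2), and 0 lower. Ribosome biogenesis genes were called higher at 5 of 29 (17.2%), a share near that of all tested genes, and Dkc1, which modifies ribosomal RNA, was 33, 44.8 and 31.3 FPKM against 153 and 131. That count was 8 without BM HSC replicate 1.

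Immediate early genes, which respond to growth factors and to stress within minutes, set the 2 BM HSC libraries apart from each other. Of 21 tested members 11 were called lower (52.4%) and 1 higher (4.8%), against 15.6% and 15.4% of all tested genes. The summed list was 1432, 1264 and 1846 FPKM in pre-HSCs and 2279 and 499.6 FPKM in BM HSCs. Fos was 140.2, 96.5 and 177 FPKM against 389.7 and 36, and Jun 151, 171 and 161 against 558 and 103. In both genes the pre-HSC libraries lay between the 2 BM HSC libraries, and neither was called. Without BM HSC replicate 2 both were called higher, Fos at 1.54 and Jun at 1.79, and without BM HSC replicate 1 Fos was called lower at -1.86. Atf3, a stress-induced factor, was 60.6, 38.4 and 106 FPKM against 0.187 and 0.267 and fell by 5.70 ± 0.35 (SE, adjusted p = 5.66e-07), and Nr4a1, an orphan nuclear receptor, was 70.6, 65.5 and 88 against 8.16 and 3.86. Myc, the growth factor-induced regulator of biosynthesis, was the rising member at 26, 34.2 and 28.6 FPKM against 119 and 123, a rise of 2.0 ± 0.16 (SE, adjusted p = 3.00e-06). Without BM HSC replicate 1, 17 members were called lower and 1 higher, and without replicate 2, 10 were lower and 5 higher. With pre-HSC replicate 2 alone 7 were lower. The pre-HSCs alone of the pair were digested with collagenase, so isolation and stage cannot be told apart here. Of 16 tested heat shock genes 1 was called higher and 4 lower, and the largest fall was in Serpinh1, a chaperone of collagen, at 470.2, 469.8 and 494 FPKM against 4.78 and 4.01.

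Cytokine receptors moved in both directions, with 22.2% of tested members called higher and 33.3% lower, against 15.4% and 15.6% of all tested genes. Of 27 tested members 6 were called higher, among them Kit and Il27ra, and 9 lower, or 5 lower with pre-HSC replicate 2 alone. Kit is a gene of both gates. Il27ra, a subunit of the interleukin 27 receptor, was 3.92, 6.19 and 3.71 FPKM against 21.4 and 21.8. Lifr, the receptor for leukemia inhibitory factor, was 12.1, 12.3 and 9.82 FPKM against 0.0989 and 0.160 and fell by 3.45 ± 0.18 (SE, adjusted p = 1.78e-07). Il2rg, the chain shared by several interleukin receptors, was 44.8, 40.1 and 38.2 FPKM against 41.6 and 35.8 and overlapped.

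Adhesion and homing genes were called higher at 10 (33.3%) and lower at 14 (46.7%) of 30 tested members, against 15.4% and 15.6% of all tested genes. Spn (CD43), a sialomucin of leukocytes, was 9.08, 11.5 and 9.01 FPKM against 129 and 171 and rose by 3.79 ± 0.18 (SE, adjusted p = 9.06e-08). Selplg, the ligand of P-selectin, was 5.98, 4.72 and 9.48 FPKM against 43.4 and 51.3 and rose by 2.69 ± 0.25 (SE, adjusted p = 9.91e-06). The sphingosine phosphate receptor S1pr1, which is abundant on endothelium, was 65.7, 71.6 and 66.9 FPKM against 4.93 and 3.66 and fell by 3.71 ± 0.19 (SE, adjusted p = 1.32e-07). Regulators of the actin skeleton of leukocytes were called higher at 15 (68.2%) and lower at 0 of 22, with a median of 1.43. Arhgap15, which switches off Rac, was 0.958, 0.531 and 3.67 FPKM against 42 and 49.9, and Dock2, which switches Rac on, 8.69, 8.08 and 11.6 against 48.8 and 57.9. Lcp1, an actin-bundling protein, was 139.9, 128 and 148 FPKM against 110.4 and 122 and was not called.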

How the data were processed

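Poly(A) RNA of sorted mouse cells had been made into libraries with the NEBNext Ultra kit and sequenced in paired-end mode, in 11 libraries of 5 populations. TopHat was used against mm9, only uniquely mapping reads were retained, and the authors deposited 1 table of FPKM per Ensembl gene. The submitters' processing notes also name featureCounts (Subread), edgeR and Cufflinks; the step that wrote the FPKM and the versions are not given in the sources read. Gene coordinates came from a GENCODE annotation of mm9, which matched 37038 of 37820 genes. Because the FPKM hold no counts, log2(FPKM + 1) was fitted with limma 3.58.1 (lmFit, eBayes with trend) in R 4.3.3 over all 11 libraries, with population as the only factor and Benjamini-Hochberg adjustment over the 13759 genes. The script was checked on simulated data. The study calls the libraries biological replicates, but the labels do not say how they were separated, so p-values measure the spread between these libraries, which may be technical.

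Gene lists counted 1 gene per symbol, the tested one with the highest mean where a symbol had several. The members and lists were chosen with earlier results of these data known, so no list result is independent support. Genes were named by rule: the sort genes, the 12 largest rises and falls among called protein-coding genes with a mean of at least 10 FPKM in the higher population and no overlap, and up to 3 rising, 3 falling and 2 uncalled members of each list. Genes said to be named after their values were seen, together with H19, B2m, H2-K1 and the Smad genes, are outside it where the rule does not reach them. Promoters came from RefSeq. Alternatives covered pseudocount, filter, scaling, fit and each library in turn. Some genes that the rule names are not reported here.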

Additional observations from a re-analysis of the deposited data

How the results depend on the processing

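The numbers of called genes moved by less than 1.5 times under every alternative run. Against 2116 higher and 2141 lower, leaving out 1 library at a time gave 1914 to 2096 higher and 1973 to 2170 lower, and the other alternatives gave 1823 to 2259 and 1793 to 2324. Scaling FPKM to equal totals gave 1823 higher and 2324 lower, the largest shift of the split toward lower calls. Over the 46 lists, 190 members were called higher and 288 lower, with ranges of 183 to 202 and 274 to 297 without 1 library. Of 256 named genes 179 were called, 156 of them under all 24 alternatives, and 20 of the 77 uncalled passed under at least 1. Fos changed sign without BM HSC replicate 2, to 1.54 (adjusted p = 0.0181), from -0.16; without BM HSC replicate 1 it was -1.86. The cause was not tested. Whether replicate numbers mark pairs cannot be decided here. Deviations of same-numbered libraries correlated at 0.12 (replicate 1) and 0.028 (replicate 2). With 2 BM HSC libraries the deviations of 1 mirror those of the other, and pre-HSC replicate 1 gave 0.12 and -0.12 with them. A fit with a replicate block called 2066 genes higher and 2053 lower. No BM HSC library has the number 3, so its differences were those without pre-HSC replicate 3 (-0.92 for Itgam in both). The fit with pre-HSC replicate 2 as the only pre-HSC library was chosen after seeing the data and gave 1950 higher and 1793 lower. There the single pre-HSC library was assumed to vary like the other populations. Depth is unknown, so limits at low FPKM could not be set.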

Other observations

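Gimap genes, GTPases encoded next to each other on chromosome 6 and known from lymphocytes, did not move together. Of 7 tested members 4 were called higher in BM HSCs (2 with pre-HSC replicate 2 alone) and 1 lower, against 15.4% and 15.6% of all tested genes. Gimap1 was 66.5, 94.7 and 67.6 FPKM in pre-HSCs against 178 and 228 in BM HSCs and rose by 1.41 ± 0.23 (SE) on the log2(FPKM + 1) scale (SE from limma, adjusted p = 0.000478). Gimap4 was 47, 51.7 and 41.7 FPKM against 3.65 and 2.23 and fell by 3.62 ± 0.17 (SE, adjusted p = 9.26e-08). Gimap6 was 115, 142 and 129.7 FPKM against 106 and 108 and was not called. In the Bcl2 family 1 of 17 tested members was called higher and 5 lower (3 with pre-HSC replicate 2 alone). Bcl2, which protects from cell death, was 3.84, 4.03 and 2.44 FPKM against 15.9 and 15.6 and rose by 1.94 ± 0.27 (SE, adjusted p = 0.000165), whereas the death-promoting members Bik (9.73, 11.1 and 12.5 FPKM against 0.246 and 0.203) and Bmf (13.9, 15.3 and 14.1 against 1.0 and 1.73) were called lower. Bax was 99, 98.9 and 122 FPKM against 65.5 and 68.6 and was not called.

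Chromatin regulators of the polycomb and DNA methylation list were called higher at 7 and lower at 2 of 29 tested members, a share called in either direction near the 30.9% of all tested genes. Within the Cbx family, whose members exchange places in the same complex, Cbx7 was 0.763, 0.568 and 0.981 FPKM against 28.4 and 15.3 and rose by 3.64 ± 0.26 (SE, adjusted p = 1.71e-06). Cbx2 was 18.5, 16.2 and 15.1 FPKM against 7.40 and 6.82 and fell by 1.11 ± 0.16 (SE, adjusted p = 0.000214). ABC transporters were called higher at 6 (33.3%) and lower at 1 (5.6%) of 18, against 15.4% and 15.6% of all tested genes. Abcb4, a phospholipid exporter, was 0.119, 0.133 and 0.206 FPKM against 14.8 and 19.6, and Abcg2, the exporter behind dye efflux by stem cells, was 70.2, 71.5 and 61.1 FPKM against 40.8 and 70.5, overlapped and was not called. Lysosome genes were called higher at 2 (8.3%) and lower at 8 (33.3%) of 24. Lgmn, a protease, was 145, 58.1 and 263 FPKM against 1.02 and 0.589, in the order of the macrophage markers, and Ctse, an aspartic protease, was 1.16, 2.18 and 4.24 against 38.3 and 44.3. With pre-HSC replicate 2 as the only pre-HSC library, 4 lysosome genes were called higher and 3 lower, and 4 were called lower without BM HSC replicate 1 and 5 without BM HSC replicate 2 or without pre-HSC replicate 1, whereas 12 were called lower without pre-HSC replicate 2.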
